A study of Mus musculus with 19 samples.

Results

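The GABA and glutamate receptor subunit genes are the protein-coding genes whose symbols begin with Gabr, Gabbr, Gria, Grik, Grin1 to Grin3 or Grid, together with the numbered metabotropic receptor genes (Grm). The rule uses the symbol and no measured value, and 19 of the 12629 genes in the deposited expression table met the rule. The 16 described here are Gabra2, Gabra3, Gabra4, Gabra5, Gabrg1, Gabbr1, Gabbr2, Gria2, Gria3, Gria4, Grik1, Grik2, Grik4, Grin1, Grin2b and Grm7. The mouse annotation (GENCODE M21) lists 48 protein-coding genes under the same rule, and the other 29 are not analysed here.

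GABA-A receptors are pentameric chloride channels, most often assembled from α, β and γ subunits, and GABA-B receptors are obligate pairs of Gabbr1 and Gabbr2 that signal through G proteins. In primary afferents the intracellular chloride concentration is high, so that GABA-A receptors depolarize the terminals and take part in presynaptic inhibition of sensory input. Glutamate, which the afferents themselves release in the spinal cord, acts on AMPA (Gria), kainate (Grik) and NMDA (Grin) channels and on G protein-coupled metabotropic receptors (Grm), and several of these receptors are also found on the afferent neurons and their terminals.

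RNA-seq was done on GFP-positive cells that FACS had sorted from dorsal root ganglia (DRGs), asking how activated integrin expression and central axotomy change the neurons' transcripts. GFP-naive (n = 5) received AAV5-CMV-fGFP in the left C5-C8 DRGs, and α9k1-naive (n = 6) received AAV5-CAG-α9-V5 and AAV5-CMV-kindlin1-GFP, which express α9 integrin and its activator kindlin-1. GFP-crush (n = 4) and α9k1-crush (n = 4) received the same vectors with a crush of the left C5-C8 dorsal roots at the time of injection. All were taken 8 weeks later from adult animals, which the sample labels call C57BL/6 mice and the study's methods call male Lewis rats, with different dissociation enzymes and RNA kits. All groups therefore carried AAV5 and GFP, the promoters of α9 and kindlin-1 are not specific to neurons, cells were sorted on the kindlin-1 vector so that some may lack α9, and whether a library pooled animals is not given in the sources used here.

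Values are the authors' log2 expression, normalized for gene length and depth. Sequencing gave 36.4 M to 87.6 M read pairs a library, and 47.5% to 54.1% of the reads aligned to the mouse genome, with mismatches at 3.87% to 4.05% of bases. How well reads of each gene aligned was not tested, and levels are compared between genes with that limit. Fermt1, which encodes kindlin-1, stood at 0.62 ± 0.16 (SD) in GFP-naive and 0.57 ± 0.12 in GFP-crush. It stood at 5.58 ± 0.33 in α9k1-naive and 7.17 ± 0.66 in α9k1-crush. Itga9 had means of 2.11 ± 0.25, 1.51 ± 0.44, 3.87 ± 0.92 and 6.59 ± 0.82 in the same order. Its α9k1-naive libraries overlapped those of GFP-naive. Both genes were higher in α9k1-crush than in α9k1-naive. The comparison of α9k1-crush with α9k1-naive and the interaction therefore also carry a difference in transgene level, whose part was not tested. All 11 markers of neurons, all 12 of satellite glia and Schwann cells, 9 of 10 of macrophages and 6 of 8 of endothelial cells and fibroblasts were in the table, with no value at or below 0 in any library, so the sorted cells also held RNA of other cell types. In these bulk libraries, fewer cells of a type and less RNA per cell cannot be told apart.

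The receptor genes were expressed at low to fairly high levels. On the length-normalized log2 scale, the mean over all 19 libraries was highest for Gabbr1, at 5.95, which is above 78.4% of the genes in the table. Grik2 (5.24), Grik1 (5.13) and Gabra2 (5.09) followed, each above 64.5% of the genes or more. The lowest were Gria3 (2.50), Gabra5 (2.38) and Grik4 (2.34), each above no more than 7.36% of the genes. Gabra2 was thus the most abundant α subunit gene, and the kainate receptor subunits GluK1 (Grik1) and GluK2 (Grik2) stood well above the AMPA receptor subunits.

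Of the GABA-A genes, 3 are neighbours in the genome (GRCm38). Gabrg1 (chr5:70751047-70842617), Gabra2 (chr5:70957597-71095849) and Gabra4 (chr5:71569749-71658308) lie on the minus strand of chromosome 5, 115 kb and 474 kb apart. Gabra5 lies at chr7:57407672-57510059 on the minus strand. Grin2b, the receptor gene with the largest difference between groups in what follows, lies at chr6:135713233-136173511 on the minus strand. Exons of Gabra5, Grin1, Grin2b and Grm7 are overlapped by antisense or other noncoding genes on the opposite strand and those of Gabra4 by Gabrb1, none of which is in the table. The libraries carry no strand information, so that the genes of such a pair cannot be told apart. On the same strand, exons of Grik4 are overlapped by the noncoding gene Gm24420, which is in the table. Those of Gria2, Gria3 and Gria4 are overlapped by microRNA genes that are not.

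Promoter sequence was read for 2 α subunit genes that were called lower with α9k1 in the naive groups but differ in their level, as the 250 bases before the annotated start (RefSeq, GRCm38.p6). A sequence was found for 13 of the 16 genes, all except Grin2b, Gria3 and Grik1. Capitals mark the GC box (GGGCGG).
Gabra2 (chr5:71095850-71096099, minus strand): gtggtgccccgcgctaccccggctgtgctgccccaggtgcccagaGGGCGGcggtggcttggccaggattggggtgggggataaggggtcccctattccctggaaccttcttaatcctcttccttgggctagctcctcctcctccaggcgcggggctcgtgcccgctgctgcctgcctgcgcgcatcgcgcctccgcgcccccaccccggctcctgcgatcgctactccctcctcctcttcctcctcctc
Gabra5 (chr7:57510060-57510309, minus strand): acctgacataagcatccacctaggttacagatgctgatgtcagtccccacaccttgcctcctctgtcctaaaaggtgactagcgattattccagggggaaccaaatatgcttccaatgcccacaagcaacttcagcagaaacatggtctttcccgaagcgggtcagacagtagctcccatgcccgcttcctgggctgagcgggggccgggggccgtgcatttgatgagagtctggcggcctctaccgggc
The Gabra2 stretch had a GC content of 70.0%, 18 CpG dinucleotides and 1 GC box, and the Gabra5 stretch had a GC content of 56.4%, 9 CpG dinucleotides and no GC box, beside a median GC content of 52.4% over all 32851 promoters. Searched on both strands, the GC box occurred in 6 of the 13 receptor gene promoters and in 32.7% of all promoters. The cAMP response element (TGACGTCA) and the AP-1 element (TGANTCA) occurred in none of the 13 stretches, and in 1.55% and 6.75% of all promoters.

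Groups were compared with limma, as differences (log2FC) at equal values of 3 covariates, the leading 3 principal components of 48 metrics of alignment and sequencing quality, and genes were called at an adjusted p under 0.1 over all 12629 genes. Since these components differed between groups, with 34.5%, 52.2% and 74.5% of their variance lying between groups, the fit without covariates, whose log2FC is the difference of the deposited means, is given beside each comparison of the receptor genes, and as counts of calls for the other genes. At least 1 contrast called 10 of the 16 genes, beside 44.4% of all genes, and Gabra3, Gabra4, Gabrg1, Gria2, Gria4 and Grin1 were called in none.

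**Figure D1:**
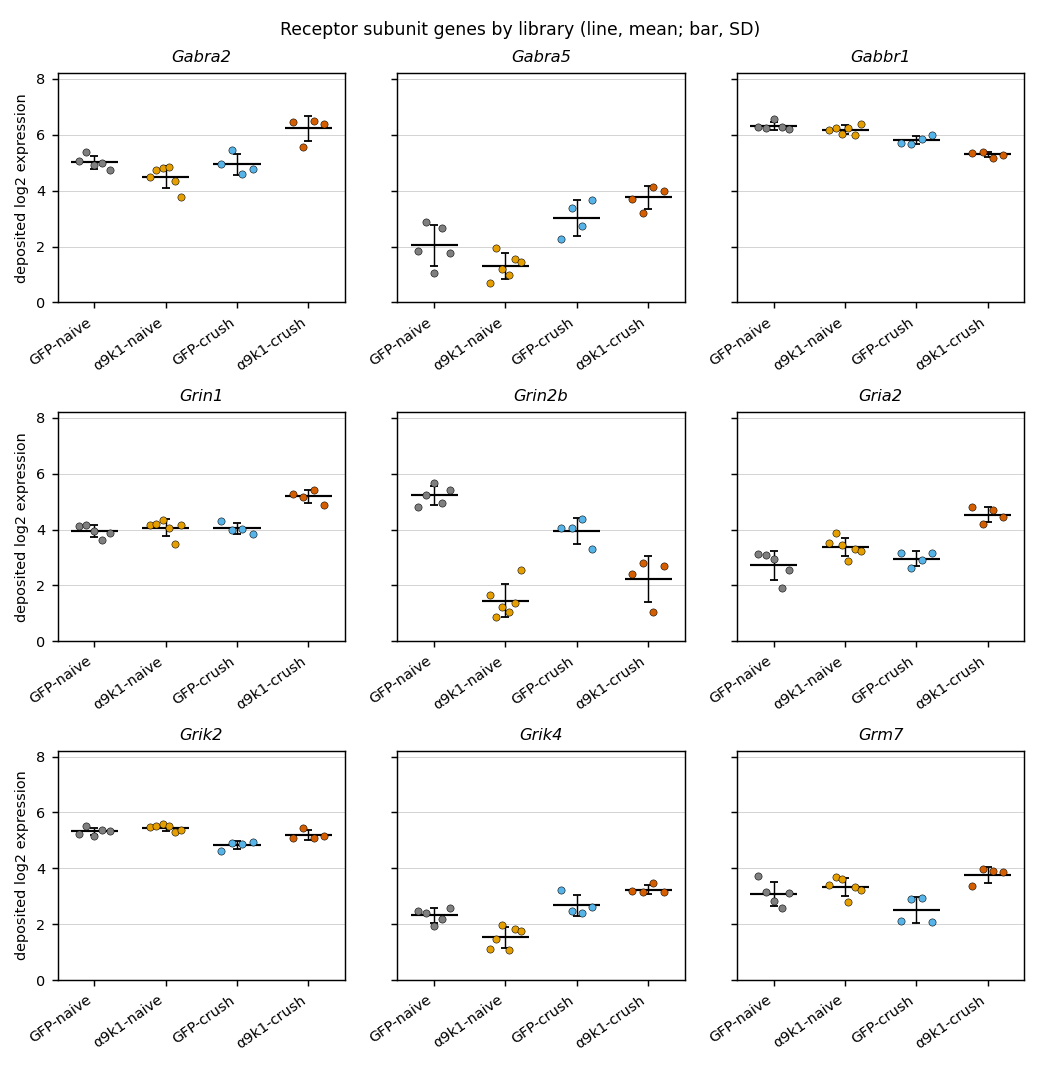
Deposited log2 expression (vertical axis) of 9 receptor subunit genes in each library (points) of the 4 groups, with the group mean (line) and SD (bar). Grin2b fell from 5.22 in GFP-naive to 1.45 in α9k1-naive, where Gabra2, Gabra5 and Grik4 were also lowest, whereas Gabra2, Gabra5, Gria2, Grik4, Grin1 and Grm7 had their highest means in α9k1-crush.

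Without crush, 5 receptor genes were lower and 1 was higher with α9k1 than with GFP. The genes that fell were the NMDA receptor subunit Grin2b, the GABA-A subunits Gabra2 and Gabra5, the GABA-B subunit Gabbr2 and the kainate receptor subunit Grik4, and the AMPA receptor subunit Gria3 rose. Of all genes tested, 17.6% were called lower and 11.4% higher in this comparison, beside 5 and 1 of the 16 receptor genes. The median log2FC was -0.05 over the receptor genes and -0.08 over all genes. With each library centred on its median, the calls over all genes were 1725 lower and 1654 higher, in place of 2224 and 1445, and the receptor genes had 4 lower and 1 higher. Without covariates 5 receptor genes were lower (Grin2b, Gabra2, Gabra4, Gabra5 and Grik4) and 3 higher (Gria2, Gria3 and Gabra3), beside 29.5% and 16.5% of all genes. The groups did not overlap for Grin2b and Gria3, and 21.7% of all genes had groups that did not overlap. Without GFP-naive replicate 2 or GFP-naive replicate 3, 2 receptor genes in place of 1 were called higher. Over all genes the higher calls then came to 1338 and 1403, in place of 1445.

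Cell type markers moved with this comparison. The neurofilament genes Nefl, Nefm and Nefh, with Snap25 and Thy1, were the 5 of 11 neuronal markers called lower, and Prph was called higher. The log2 of the summed neuronal markers was 13.5 to 13.8 in GFP-naive and 12.9 to 13.2 in α9k1-naive. Of the satellite glia and Schwann cell markers 6 of 12 were lower and 2 higher, with sums of 13.5 to 13.9 in GFP-naive and 12.5 to 12.9 in α9k1-naive. All 6 endothelial and fibroblast markers were lower, with sums of 9.53 to 9.85 and 6.79 to 8.32, and 7 of 9 macrophage markers were higher, with sums of 8.86 to 9.43 and 10.5 to 11.0. Among large-diameter neuron markers, Pvalb was lower and Spp1 higher, and none of the nociceptor markers was called. Without covariates the calls were 7 neuronal markers lower and none higher, 8 glial lower and 1 higher, 7 macrophage higher, 6 endothelial and fibroblast lower, 2 large-diameter neuron markers higher and 1 lower, and 2 nociceptor markers lower. Of all genes, 29.5% were then called lower and 16.5% higher. The part of these shifts in the receptor differences was not tested.

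After crush, at equal covariates no receptor gene was called between the α9k1 and GFP groups, where 0.728% of all genes were called higher and 0.182% lower. No receptor gene had an unadjusted limma p under 0.05 in this comparison either, and limma called 0 of the 16 under array weights, the replicate block and each normalization tried. The log2FC of the receptor genes ran from -0.52 to 0.81, and their standard errors, from 0.24 to 0.92, were larger than those of the naive comparison, from 0.11 to 0.42. Without the covariates, 9 receptor genes were called higher and 2 lower, beside 29.6% and 28.3% of all genes. The 2 lower genes were Grin2b and Gabbr1, and the 9 higher ones were Gabra2, Gabrg1, Gabbr2, Grin1, Gria2, Gria4, Grik2, Grik4 and Grm7. Of these 11, Gabbr2, Grm7 and Gabrg1 had the opposite sign at equal covariates. The deposited values of the groups did not overlap for 8 receptor genes, 6 of them higher and 2 lower in α9k1-crush, and for 40.8% of all genes. For each of these 8 the exact permutation test gave a two-sided p of 0.0286, the smallest that 4 libraries against 4 allow, unadjusted for the 16 genes. The effect of α9k1 after crush and the library metrics cannot be told apart for these genes. None of the cell type markers was called at equal covariates. Without covariates, 8 of 12 glial markers were called lower in α9k1-crush and 1 higher, among them Sox10 (7.76 ± 0.21 (SD) in GFP-crush and 6.35 ± 0.26 in α9k1-crush) and Fabp7 (8.64 ± 0.21 and 7.01 ± 0.35). Of the other markers, 3 neuronal genes were then higher and 2 lower, 2 macrophage genes higher and 2 lower, 1 fibroblast gene higher and the endothelial gene Cldn5 lower, 3 large-diameter neuron genes higher and 2 non-peptidergic nociceptor genes lower. Their part in the receptor differences was not tested.

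**Figure D2:**
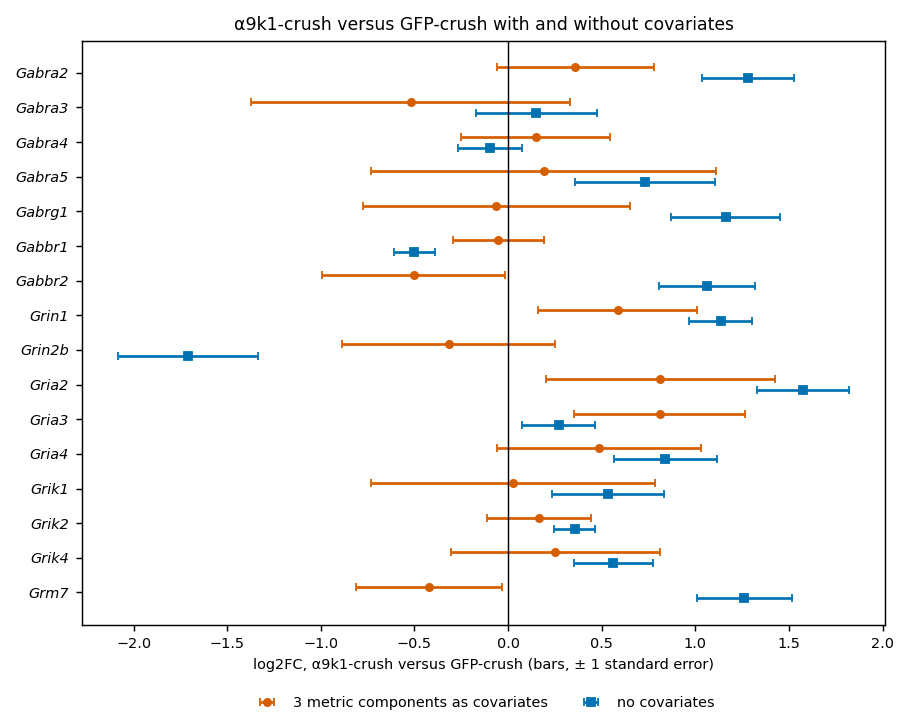
The log2FC of the 16 receptor subunit genes between α9k1-crush and GFP-crush (horizontal axis; bars, ± 1 standard error), with 3 metric components as covariates (circles) and without covariates (squares). Without covariates 10 genes lie between 0.53 and 1.58, with Grin2b at -1.71, whereas with covariates they lie between -0.52 and 0.81 with wider bars.

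After crush with GFP, 5 receptor genes were lower and none was higher. Grin2b, the kainate receptor subunits Grik1 and Grik2, Gabbr1 and the metabotropic receptor Grm7 were below their GFP-naive levels, beside 15.7% of all genes called lower and 7.39% called higher. Without covariates Gabbr2 joined them, which made 6 lower genes, and Gabra5 was called higher, beside 20.1% and 11.0% of all genes. The median log2FC of the receptor genes was -0.07, and that of all genes was -0.08. Centring each library on its median moved the median of all genes to 0.06 and the calls over all genes from 1984 lower and 933 higher to 1180 lower and 1826 higher, and 4 receptor genes were then lower and none higher, Grm7 being the one no longer called (log2FC = -0.41). The groups did not overlap for 4 receptor genes, all lower in GFP-crush, and for 19.8% of all genes. The number of lower genes was 2 without GFP-naive replicate 2 and 3 without GFP-naive replicate 3 or GFP-crush replicate 1, 2 or 4, and 1 gene was called higher without α9k1-naive replicate 6 or GFP-crush replicate 1. Neuronal markers were called higher for 6 of 11 genes, with summed levels of 14.1 to 14.5 in GFP-crush on the log2 scale, and macrophage markers for 7 of 9, with 11.1 to 11.7. Endothelial and fibroblast markers were lower for 4 of 6, glial markers lower for 3 and higher for 1 of 12, the large-diameter neuron markers Pvalb and Runx3 were higher, and the nociceptor marker P2rx3 was lower. Without covariates the calls were 8 neuronal and 7 macrophage markers higher, 5 glial lower and 1 higher, 5 fibroblast lower, 1 large-diameter neuron marker higher and P2rx3 lower. Their part in the receptor differences was not tested.

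With α9k1, 2 receptor genes were called higher after crush and 2 lower. The GABA-A subunit Gabra2 and the kainate receptor subunit Grik4 rose in α9k1-crush relative to α9k1-naive, where 4.47% of all genes were called higher. Gabbr1 and Grm7 were called lower, beside 5.27% of all genes, although the deposited mean of Grm7 was higher in α9k1-crush. The median log2FC was 0.29 over the receptor genes and 0.00 over all genes. Without covariates 10 receptor genes were called higher (Gabra2, Gabra4, Gabra5, Gabrg1, Gabbr2, Grin1, Grin2b, Gria2, Gria4 and Grik4) and 5 lower (Gabra3, Gabbr1, Gria3, Grik1 and Grik2), beside 28.5% and 27.1% of all genes, and the groups did not overlap for 9 receptor genes, 6 of them higher, and for 33.4% of all genes. Gabra2 was called in all 19 fits that left out 1 library (log2FC = 1.11 to 1.88). The higher calls came to 1, with Grik4 no longer called, without GFP-naive replicate 1, 2 or 4, α9k1-naive replicate 1 or 2, GFP-crush replicate 2, 3 or 4 or α9k1-crush replicate 1, 3 or 4, and to 3 without GFP-naive replicate 3, α9k1-naive replicate 6 or α9k1-crush replicate 2, the last of which had the lowest Gabra2 and Gabra5 values of its group. Over all genes the higher calls, 565 in the full fit, were 359 to 575 in the fits with 1 and 412, 612 and 776 in those with 3. The lower calls came to 0 without GFP-naive replicate 1, which enters through the covariates, and to 1 without α9k1-naive replicate 1, 2 or 4, GFP-crush replicate 1 or α9k1-crush replicate 4. Over all genes the lower calls were 510 without GFP-naive replicate 1 and 375 to 543 in those other fits, against 665 in the full fit.

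Markers of other cells moved with the α9k1-crush comparison as well. The neurofilament genes and Snap25 were the 4 of 11 neuronal markers that were higher, with summed levels of 14.0 to 14.5 in α9k1-crush against 12.9 to 13.2 in α9k1-naive. Glial markers were higher for 4 and lower for 2 of 12, with sums of 12.8 to 13.6, macrophage markers were higher for 2 of 9, with sums of 10.7 to 11.4, and fibroblast markers were higher for 4 of 6. Pvalb was higher and Spp1 lower. The peptidergic nociceptor markers Calca and Tac1 were not called at equal covariates, but their summed level was 8.56 in α9k1-crush replicate 1 and had a median of 11.3 in its group. Without covariates both of these were called lower, as were 2 non-peptidergic markers, and the other calls were 8 neuronal, 3 macrophage and 3 fibroblast markers higher, 4 glial higher and 5 lower, and 3 large-diameter neuron markers higher and 1 lower. Of all genes, 28.5% were then called higher and 27.1% lower. The part of these markers in the receptor differences was not tested.

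**Figure D3:**
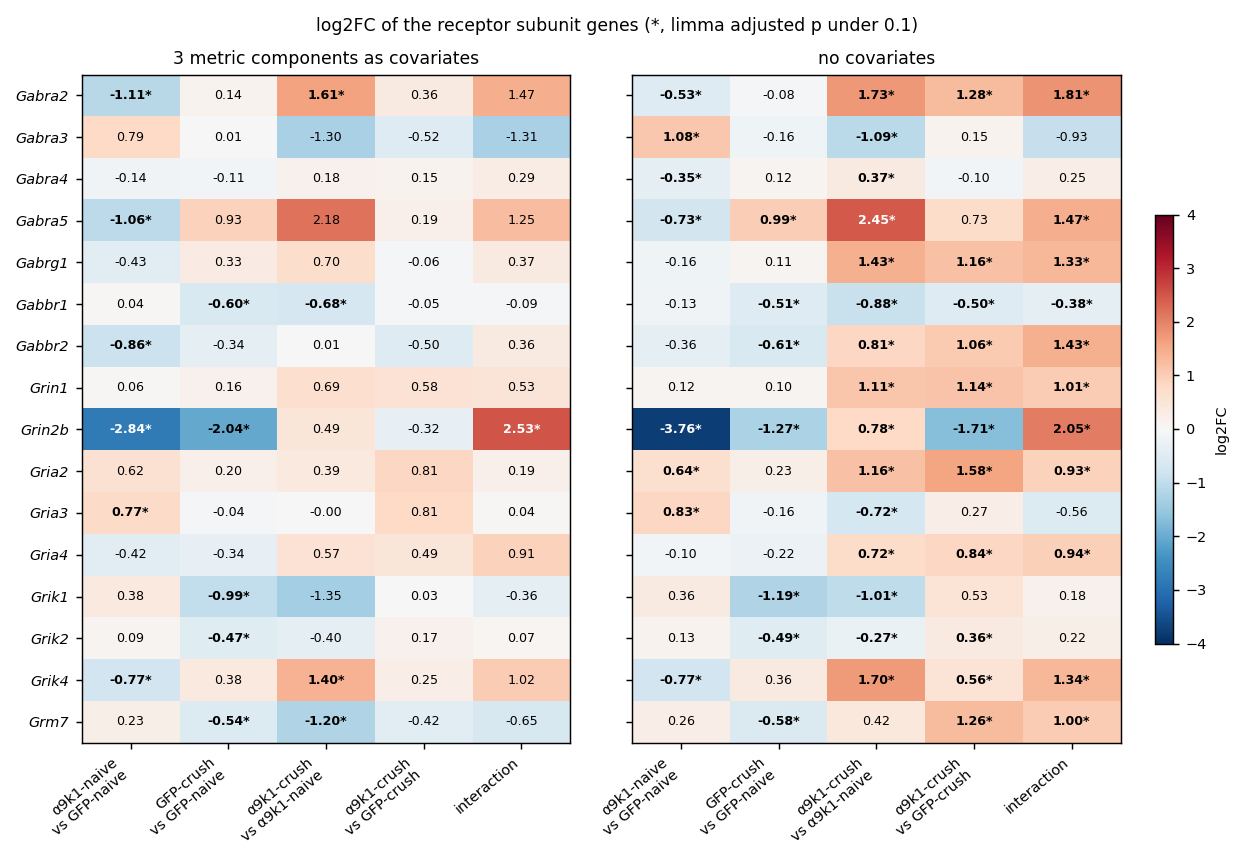
The log2FC of the 16 receptor subunit genes (rows) in 5 contrasts (columns) with 3 metric components as covariates (left) and without covariates (right), where red is higher and blue lower in the group named first and an asterisk marks a limma adjusted p under 0.1. Grin2b carries the lowest value on both sides (-2.84 and -3.76, α9k1-naive against GFP-naive), and the α9k1-crush columns hold 4 and 0 calls on the left and 15 and 11 on the right.

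Among GABA-A α subunits, Gabra2, which encodes the α2 subunit found on primary afferent neurons, was lower in α9k1-naive and higher in α9k1-crush. Its values were 5.05, 5.39, 4.92, 4.99 and 4.75 in GFP-naive and 3.77, 4.60 and 4.83 (lowest, median and highest) in α9k1-naive, so that these groups overlapped. They were 4.95, 5.44, 4.58 and 4.79 in GFP-crush and 6.45, 5.56, 6.51 and 6.38 in α9k1-crush, where every library exceeded all of those in the other groups. The log2FC was -1.11 ± 0.19 (SE) between the naive groups (limma adjusted p = 0.000837) and 1.61 ± 0.35 between the α9k1 groups (adjusted p = 0.0156). The former was -0.53 without covariates (adjusted p = 0.0566). Between the crush groups the log2FC was 0.36 ± 0.42 at equal covariates (limma adjusted p = 0.864, not called). Without covariates that log2FC was 1.28 (limma adjusted p = 0.000376).

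Gabra5, the α subunit of many extrasynaptic receptors, was among the genes at the lowest level. Its values were 1.84, 2.87, 1.06, 2.66 and 1.77 in GFP-naive and 0.68, 1.32 and 1.97 (lowest, median and highest) in α9k1-naive. In GFP-crush they were 2.27, 3.40, 2.75 and 3.68, and in α9k1-crush 3.71, 3.21, 4.12 and 4.0. The naive groups overlapped, their log2FC was -1.06 ± 0.42 (SE; limma adjusted p = 0.0896), and the call held in only 7 of the 19 fits that left out 1 library (log2FC = -1.62 to -0.83). Both crush means were above their naive controls, by 0.99 with GFP and 2.45 with α9k1, and neither difference was called at equal covariates, whereas both were without covariates (limma adjusted p = 0.0521 and 1.32e-05).

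Gabra3 and Gabra4 were not called in any contrast at equal covariates. Gabra3 had means of 3.42 ± 0.87 (SD), 4.50 ± 0.18, 3.26 ± 0.20 and 3.41 ± 0.31 in the GFP-naive, α9k1-naive, GFP-crush and then α9k1-crush libraries, and its 5 GFP-naive libraries ran from 2.03 to 4.26. Without covariates it was called higher in α9k1-naive, the opposite direction to Gabra2, and lower in α9k1-crush than in α9k1-naive (log2FC = -1.09, limma adjusted p = 0.00552), which did not overlap. Gabra4 had means between 2.28 and 2.75 in the 4 groups. Without covariates it was called lower with α9k1 in the naive groups (log2FC = -0.35, limma adjusted p = 0.0693) and higher with crush in the α9k1 groups (log2FC = 0.37, adjusted p = 0.0562).

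Gabrg1 had means of 4.34 ± 0.42 (SD), 4.17 ± 0.14, 4.44 ± 0.63 and 5.61 ± 0.56 in the order GFP-naive, α9k1-naive, GFP-crush and finally α9k1-crush. It was not called at equal covariates, and without covariates it was called higher in α9k1-crush than in either α9k1-naive or GFP-crush.

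Of the GABA-B subunits, Gabbr1, which binds GABA, had an SD of 0.10 to 0.15 within groups. It stood at 6.26, 6.26, 6.55, 6.28 and 6.19 in GFP-naive and at 6.00, 6.21 and 6.40 (lowest, median and highest) in α9k1-naive. It stood at 5.70, 5.67, 5.86 and 5.99 in GFP-crush and at 5.36, 5.39, 5.18 and 5.27 in α9k1-crush. All crush libraries were below all naive libraries, and all α9k1-crush libraries were below all GFP-crush libraries. Gabbr1 fell after crush with GFP (log2FC = -0.60 ± 0.11, SE; limma adjusted p = 0.00381) and with α9k1 (log2FC = -0.68 ± 0.20; adjusted p = 0.0609), the latter in 13 of the 19 fits that left out 1 library.

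Gabbr2, the subunit that couples to the G protein, ordered the groups differently from its partner. Its means were 3.88 ± 0.30 (SD), 3.52 ± 0.45, 3.27 ± 0.44 and 4.33 ± 0.31 in the GFP-naive, α9k1-naive, GFP-crush and then α9k1-crush libraries. Between the naive groups it was called lower with α9k1 at equal covariates (log2FC = -0.86 ± 0.22, SE; limma adjusted p = 0.0133) and not without them (log2FC = -0.36, adjusted p = 0.203), and these groups overlapped. Between α9k1-crush and GFP-crush, the deposited means of Gabbr1 differed by -0.50 and those of Gabbr2 by 1.06, and at equal covariates neither was called, with log2FCs of -0.05 and -0.50, so that the direction of Gabbr2 turned.

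Among NMDA receptor subunits, Grin2b had the largest difference of all receptor genes. Its values were 4.82, 5.25, 5.66, 4.94 and 5.42 in GFP-naive and 0.88, 1.30 and 2.54 (lowest, median and highest) in α9k1-naive. They were 4.05, 4.06, 4.38 and 3.29 in GFP-crush and 2.41, 2.80, 1.04 and 2.69 in α9k1-crush. The GFP-naive libraries lay above all others, the GFP-crush libraries came next, and the α9k1 groups, which overlapped each other, lay below every GFP library. In α9k1-naive, Grin2b was lower by a log2FC of -2.84 ± 0.26 (SE; limma adjusted p = 1.94e-06), and the deposited means differed 13.6-fold. The α9k1-naive values were near the low end of the scale, where Fermt1 stood at 0.62 in GFP-naive, so the size of the fold is uncertain. The call held in all 19 fits that left out 1 library (log2FC = -2.99 to -2.75).

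Grin2b was also lower after crush with GFP (log2FC = -2.04 ± 0.26, SE; limma adjusted p = 0.000269; the deposited means differed 2.42-fold). With α9k1 the crush comparison was not called at equal covariates, with deposited means of 1.45 ± 0.60 (SD) and 2.24 ± 0.81, and was called higher without them (adjusted p = 0.0664). Both means were near the low end of the scale, which limits how the size of the interaction can be read. The interaction, which subtracts the naive α9k1 effect from the one after crush, was 2.53 ± 0.54 (SE; adjusted p = 0.0384), and Grin2b was the only receptor gene for which it was called, where 1.35% of all genes were called positive and 0.847% negative. The Grin2b interaction was not called without GFP-naive replicate 3 (2.45) or GFP-naive replicate 4 (2.41). Positive calls over all genes then fell from 171 to 70 and 99. Gabra2, with an interaction of 1.47 ± 0.40 (SE; limma adjusted p = 0.1001), was just above the threshold. Without α9k1-crush replicate 2, the 2 receptor genes called were Grin2b and Gabra2, among 268 positive calls over all genes. With libraries centred on their medians the interaction calls over all genes changed from 171 positive and 107 negative to 118 and 167, and 1 receptor gene had a positive call. Without covariates the Grin2b interaction was 2.05 (adjusted p = 0.00538), and 10 receptor genes (Grin2b, Gabra2, Gabra5, Gabrg1, Gabbr2, Grin1, Gria2, Gria4, Grik4 and Grm7) had a positive and 1 (Gabbr1) had a negative call, beside 23.3% and 16.1% of all genes. Between the crush groups the log2FC was -0.32 at equal covariates and -1.71 without covariates (adjusted p = 0.00108), and it was 0.31 at equal covariates without GFP-crush replicate 2.

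Grin1, the obligatory subunit of NMDA receptors, ordered the groups differently from Grin2b. It stood at 4.13, 4.15, 3.95, 3.64 and 3.87 in GFP-naive and at 3.50, 4.15 and 4.35 (lowest, median and highest) in α9k1-naive. It stood at 4.32, 3.99, 4.04 and 3.84 in GFP-crush and at 5.28, 5.15, 5.40 and 4.89 in α9k1-crush. The α9k1-crush libraries were above all others, and the other 3 groups overlapped. No contrast was called at equal covariates, and the difference of the deposited means from GFP-crush was 1.14.

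Of the AMPA receptor subunits, Gria2, whose product makes the channels impermeable to calcium, had the highest mean. It stood at 3.14, 3.10, 2.94, 1.90 and 2.56 in GFP-naive and at 2.87, 3.37 and 3.86 (lowest, median and highest) in α9k1-naive. It stood at 3.16, 2.62, 2.89 and 3.17 in GFP-crush and at 4.80, 4.22, 4.69 and 4.43 in α9k1-crush. Every α9k1-crush library was above all others, and Gria2 was not called at equal covariates in any contrast, whereas without covariates it was called higher in α9k1-naive than in GFP-naive (limma adjusted p = 0.0220) and in α9k1-crush than in either α9k1-naive or GFP-crush. Gria3 had means of 2.25 ± 0.19 (SD) in GFP-naive and 3.08 ± 0.18 in α9k1-naive, which did not overlap. It was the 1 receptor gene called higher in α9k1-naive (log2FC = 0.77 ± 0.21, SE; limma adjusted p = 0.0167), and its means were 2.09 ± 0.37 in GFP-crush and 2.36 ± 0.42 in α9k1-crush, where it was called lower than in α9k1-naive without covariates (adjusted p = 0.00302) and not at equal covariates. Gria4 had means between 2.89 and 3.73 in the 4 groups and was not called at equal covariates.

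The kainate receptor subunits divided by level. Grik2, at a high level, stood at 5.23, 5.51, 5.18, 5.38 and 5.34 in GFP-naive and at 5.29, 5.50 and 5.59 (lowest, median and highest) in α9k1-naive. It stood at 4.63, 4.90, 4.87 and 4.96 in GFP-crush and at 5.09, 5.44, 5.08 and 5.17 in α9k1-crush. The GFP-crush libraries were below all others. Grik2 fell after crush with GFP (log2FC = -0.47 ± 0.13, SE; limma adjusted p = 0.0249), a call lost without GFP-naive replicate 2 (log2FC = -0.38). Grik1, the kainate subunit of small-diameter afferents, had means of 5.41 ± 0.41 (SD), 5.76 ± 0.34, 4.22 ± 0.28 and 4.75 ± 0.73 in the GFP-naive, α9k1-naive, GFP-crush and then α9k1-crush libraries. It fell after crush with GFP (log2FC = -0.99 ± 0.35, SE; adjusted p = 0.0692), in 11 of the 19 fits that left out 1 library (log2FC = -1.16 to -0.86).

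Grik4, a kainate subunit that forms channels only together with Grik1 to Grik3, was lowest in α9k1-naive. It stood at 2.48, 2.41, 1.92, 2.20 and 2.57 in GFP-naive and at 1.10, 1.62 and 1.98 (lowest, median and highest) in α9k1-naive. It stood at 3.21, 2.47, 2.42 and 2.62 in GFP-crush and at 3.19, 3.16, 3.46 and 3.15 in α9k1-crush. The naive groups overlapped in 1 library each, and the α9k1-crush libraries were above all naive libraries. Grik4 was lower with α9k1 than with GFP in the naive groups (log2FC = -0.77 ± 0.26, SE; limma adjusted p = 0.0447) and higher in α9k1-crush than in α9k1-naive (log2FC = 1.40 ± 0.46; adjusted p = 0.0916), the latter in only 7 of the 19 fits that left out 1 library (log2FC = 1.10 to 1.88).

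Grm7, a presynaptic metabotropic receptor that lowers transmitter release, stood at 3.73, 3.17, 2.84, 2.58 and 3.14 in GFP-naive and at 2.80, 3.38 and 3.70 (lowest, median and highest) in α9k1-naive. It stood at 2.10, 2.92, 2.93 and 2.10 in GFP-crush and at 3.36, 3.96, 3.91 and 3.87 in α9k1-crush. The α9k1-crush libraries were above all GFP-crush libraries, a difference of the deposited means of 1.26 that turned to a log2FC of -0.42 at equal covariates (not called), and the other groups overlapped. It was called lower after crush with GFP (log2FC = -0.54 ± 0.18, SE; limma adjusted p = 0.0548), in 14 of the 19 fits that left out 1 library. It was also called lower in α9k1-crush than in α9k1-naive at equal covariates (log2FC = -1.20 ± 0.32; adjusted p = 0.0416; without GFP-naive replicate 1, -1.05 and not called), although its deposited mean was higher in α9k1-crush by 0.42 (adjusted p without covariates = 0.139). No direction is therefore given for Grm7 in this comparison.

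Genes that handle the transmitters or anchor the receptors were compared on the same scale. For GABA, 14 of 24 listed genes were in the table. Kctd16 (log2FC = 0.98), an auxiliary subunit of GABA-B receptors, and the trafficking adaptor Trak1 (0.56) were higher with α9k1 in the naive groups, and none was lower, where 11.4% and 17.6% of all genes were called higher and lower. After crush with GFP, 3 were lower and none higher, beside 15.7% and 7.39% of all genes, with Kctd12 (-1.16), another GABA-B auxiliary subunit, and the trafficking adaptor Trak2 (-0.72) lowest. In α9k1-crush against α9k1-naive, Kctd12 (-1.33) and the GABA-degrading enzyme Abat (-1.15) were lower, none was higher, beside 5.27% and 4.47% of all genes, and the interaction was called for none. Without covariates, 4 of the 14 were higher and 2 lower in the naive comparison, 4 were lower in GFP-crush, 3 were higher and 5 lower between the α9k1 groups, 7 were higher and 5 lower between the crush groups, and 3 interactions were positive and 3 negative. Of all genes without covariates, 16.5% were higher and 29.5% lower in the naive comparison, and 20.1% were lower in GFP-crush. Between the α9k1 groups 28.5% were higher and 27.1% lower, and between the crush groups 29.6% and 28.3%. Interactions were positive for 23.3% and negative for 16.1% of all genes.

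For glutamate, 29 of 47 listed genes were in the table, and with α9k1 6 were higher and 6 lower in the naive groups, beside 11.4% and 17.6% of all genes. The highest were the AMPA receptor anchor Grip1 (log2FC = 1.33) and the glial glutamate transporter Slc1a3 (0.77), and the lowest were Slc17a7 (-3.54), which loads glutamate into synaptic vesicles, and Cbln2 (-1.95), a synaptic organizer that binds the δ receptors. After crush with GFP, 3 were higher and 3 lower, beside 7.39% and 15.7% of all genes, with Slc17a7 (1.06) and the AMPA receptor auxiliary subunit Cacng2 (0.79) highest and Shisa9 (-1.07) and Shank2 (-0.77) lowest. In α9k1-crush against α9k1-naive, 4 were higher and 4 lower, beside 4.47% and 5.27% of all genes, with Slc17a7 (4.26) and Cbln2 (2.95) highest and Grip1 (-1.53) and Glul (-1.18), glutamine synthetase, lowest. No direction is given for Grip1 there, since its deposited means were 2.44 in both groups. The interaction was called for Slc17a7 (3.20). No gene of either list was called between the crush groups at equal covariates. Without covariates, 11 of the 29 were higher and 7 lower in the naive comparison, 2 were higher and 4 lower in GFP-crush, 12 were higher and 9 lower between the α9k1 groups, 10 were higher and 3 lower between the crush groups, and 8 interactions were positive and 5 negative. Of all genes without covariates, 16.5% were higher and 29.5% lower in the naive comparison, and 11.0% and 20.1% in GFP-crush. Between the α9k1 groups 28.5% were higher and 27.1% lower, and between the crush groups 29.6% and 28.3%. Interactions were positive for 23.3% and negative for 16.1% of all genes. Slc17a7 had means of 6.18 ± 0.30 (SD), 2.84 ± 0.25, 7.08 ± 0.39 and 8.01 ± 0.44 in the GFP-naive, α9k1-naive, GFP-crush and then α9k1-crush libraries.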

How the data were processed

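Libraries were grouped by their GEO labels. Per the study's methods, the authors made libraries with the SMART-Seq v4 kit, aligned reads to mm10 with STAR, counted with Salmon, removed genes with low counts and normalized log2 counts with cqn for gene length and depth. The authors deposited these log2 values without gene names, so the row order was taken from the authors' deposited gene table. Row means and the mean levels in that table had r = 0.959 across genes, against 0.0810 after a shift by 1 row. The fold changes, p-values and adjusted p-values the authors deposited there were not used. Tool versions are not given in the sources used here.

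The authors deposited Picard metrics per library as counts of reads and bases, as fractions, as percentages (dropout) and as ratios (coverage bias and coverage by GC content). The first 3 principal components of 48 scaled metrics (45.9%, 24.1% and 11.5% of their variance) were covariates in 1 limma fit (limma 3.58.1, R 4.3.3) of 4 group means over 19 libraries and 12629 genes, with Benjamini-Hochberg adjustment and a threshold of 0.1. The study's batch term is not in the labels and was left out, so batch and group cannot be told apart. The fit was also run on simulated data. The simulated noise was unrelated to the covariates, so that run cannot show how the covariates act on the real values. Some genes that meet the rule or stand in the lists are not reported here, and counts of receptor, companion and marker genes leave them out, whereas the fit and its adjustment cover all genes. The receptor genes and the lists of companion and marker genes were chosen with earlier results of these data known. Values by library are given for genes called with an absolute log2FC of at least 1 and for genes with the highest mean of their family, and for companion genes the 2 highest and 2 lowest called per contrast. Permutation tests were exact and two-sided. Alternatives were no covariates, only the 2 groups compared, removal of the 25% of genes with the lowest means, quantile normalization, median-centred libraries, array weights, a replicate block and each library left out. Depth was 36.4 M to 87.6 M read pairs, and counting error, which the normalized values do not show, is part of the SD.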

Additional observations from a re-analysis of the deposited data

Results flagged for a closer look

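Of 64 sets of values (16 genes in 4 groups), 7 held a library set apart from the rest of its group by Dixon's criterion, which chance meets in about 1 of 20 sets. In α9k1-crush, replicate 2 was low for Gabra2 (5.56), replicate 3 was high for Grik4 (3.46), and replicate 1 was low for Grm7 (3.36). In α9k1-naive, replicate 6 was high for Gabra4 (2.65) and replicate 5 was low for Grin1 (3.50). In the GFP groups, GFP-naive replicate 3 was high for Gabbr1 (6.55) and GFP-crush replicate 1 was low for Gabra4 (2.50). The effect of α9k1 on Grin2b differed between crush and naive by 2.53 on the log2 scale in the test of the interaction. Its means in α9k1-naive (1.45) and α9k1-crush (2.24) were near the low end of the scale.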

How the results depend on the processing

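Without covariates, α9k1-naive had 3 receptor genes higher than GFP-naive, α9k1-crush had 9 higher and 2 lower than GFP-crush, GFP-crush had 1 higher than GFP-naive, α9k1-crush had 10 higher and 5 lower than α9k1-naive, and the interaction was positive for 10 and negative for 1. Of all genes, 16.5%, 29.6%, 11.0% and 28.5% were then called higher in these comparisons, in the same order. Lower calls were 28.3% between the crush groups and 27.1% between the α9k1 groups, and interactions were 23.3% positive and 16.1% negative. Grm7 reversed to 0.42 between the α9k1 groups. Removal of the lowest 25% of genes left 9 of the 16 receptor genes in the test, without Grin2b, Gria3, Gria4, Grik4, Gabra4, Gabra5 and Grm7, and of these 0 were higher and 2 lower in α9k1-naive, 3 lower in GFP-crush, and 1 higher and 1 lower between the α9k1 groups after crush, beside 1158, 1865, 1697, 529 and 644 of the 9472 genes tested. With only the groups compared, and so fewer libraries, 3 were lower in α9k1-naive, 1 was lower in GFP-crush and 1 higher and 0 lower in α9k1-crush against α9k1-naive, beside 1771, 662, 64 and 138 of all 12629 genes. Quantile normalization called 2 higher in α9k1-naive and 1 in GFP-crush, beside 1622 and 1206 of all genes. Array weights called 1 higher in GFP-crush and 2 positive interactions, beside 885 and 354 of all genes. The cause of the differences under no covariates, quantile normalization and weights was not tested.

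Leaving out 1 library at a time gave 1 to 2 higher and 4 to 5 lower receptor genes in α9k1-naive against GFP-naive, 0 to 0 in either direction between the crush groups, 0 to 1 higher and 2 to 5 lower in GFP-crush, 1 to 3 higher and 0 to 3 lower in α9k1-crush against α9k1-naive, and 0 to 2 positive and 0 to 0 negative interactions. Over all genes these fits called 1172 to 1496 higher and 1580 to 2318 lower in α9k1-naive. Between the crush groups they called 58 to 126 higher and 2 to 41 lower, and in GFP-crush 445 to 1032 and 1057 to 2143. In α9k1-crush against α9k1-naive they called 274 to 776 higher and 375 to 968 lower. Interactions were positive for 68 to 268 and negative for 44 to 173 of all genes. Grin2b between the crush groups ran from -0.51 to 0.31.

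Replicate numbers did not pair the libraries. Same-numbered libraries of different groups had correlations of their deviations of -0.27 to 0.15 (25 pairs), and 3 of 18 libraries correlated best with their own number. With a replicate block, 1 receptor gene was higher in GFP-crush, 0 were higher and 0 lower in α9k1-crush against α9k1-naive, 0 had a positive interaction (Gabra2 had a log2FC of 1.47 between the α9k1 groups, limma adjusted p = 0.230, and Grin2b an interaction of 2.87, adjusted p = 0.233), and Grin2b between the crush groups reversed to 0.16. Of all genes, the block called 869 higher in GFP-crush, 155 higher and 176 lower between the α9k1 groups (565 and 665 without the block) and 19 positive interactions (171 without it). Depth could not be used to set limits, since the values are normalized.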
